A study of Homo sapiens with 28 samples.

Results

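Open chromatin was examined at the loci of 10 genes of the AP-1 and BATF family in human multiple myeloma cell lines: FOS, FOSB, FOSL1, FOSL2, JUN, JUNB, JUND, BATF, BATF2 and BATF3. Members were the accessible regions whose nearest annotated transcription start belongs to one of these genes, which gave 43 of 154985 regions. Of these, 22 were promoter regions, with a distance of at most 2500 bp to the start, and 21 were distal. The data came from ATAC-seq, an assay that reads accessible DNA by where the Tn5 transposase can place its adapters. One group held 22 established myeloma lines grown without drug, and the other held 6 of the same lines (Karpas620, KMS27, L363, MM1S, OPM2 and RPMI8226) exposed to 10 µM lenalidomide and collected on day 3. Lenalidomide is an immunomodulatory drug that redirects the cereblon ubiquitin ligase to degrade the lymphoid factors IKZF1 and IKZF3. Each line was assayed once under each condition, so no error within a line could be measured, and each line stands for 1 cultured clone or population rather than for patients. The labels give no genotype, and whether the untreated libraries were also collected on day 3 is not stated.

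The members encode basic leucine zipper proteins, which bind DNA as dimers. FOS proteins pair with JUN proteins to form AP-1, while JUN proteins can also pair with themselves, and the dimers bind the AP-1 site or the closely related cyclic AMP response element (CRE). FOS, FOSB, JUN and JUNB are immediate early genes, whose transcription follows growth factor and stress signals within minutes. BATF, BATF2 and BATF3 lack the transactivation domain of FOS, pair with JUN proteins and cooperate with interferon regulatory factors. BATF and IRF4 act together in B and T lymphocytes, and BATF2 is known as an interferon-inducible gene.

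Library totals over all regions ran from 1599857 to 5564534 counts (median 2239819) in the untreated lines and from 2168680 to 4248017 in the lenalidomide libraries. Between 6 and 23 of the 43 member regions (median 14) carried a peak of their own in an untreated library, and between 12 and 21 in a lenalidomide library. Levels are given as CPM, the count in a region scaled to an equal library total over all regions, and 95% Wilson intervals given for them cover counting error only. Promoters of 7 plasma cell genes were called in a median of 21 of 22 lines, from PRDM1 in 22 to SLAMF7 in 6. The median was 2 lines for 3 B cell genes, of which PAX5 was called in 12, and 1.5 lines for 4 T cell genes, of which CD247 was called in 20. It was 2 lines for 4 myeloid genes and 9 lines for 3 epithelial or stromal genes, of which COL1A1 was called in 21. CD2 among the T cell genes and LYZ among the myeloid genes had no promoter region and count as 0 lines.

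The loci differed in how many regions they held. BATF had 13 regions and BATF3 had 8, whereas FOSL2 had 7, FOSL1 and JUND had 3 each, FOS, FOSB, JUN and JUNB had 2 each, and BATF2 had 1. All 21 distal regions lay at 4 of the loci, with 11 at BATF, 5 at BATF3, 4 at FOSL2 and 1 at FOSL1. Peaks were called in all 22 untreated lines at 3 regions (6.98% of the members, against 3.98% of all regions), which were the promoter regions of JUN, JUND and BATF3. A further 10 regions were called in a single untreated line (23.3% of the members, against 37.1% of all regions). One region was called only in a lenalidomide library, and 12495 of all 154985 regions had no peak in an untreated line. Among promoter regions alone the share called in all lines was 13.6% for the members and 13.4% for all 41131 promoter regions.

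**Figure D1:**
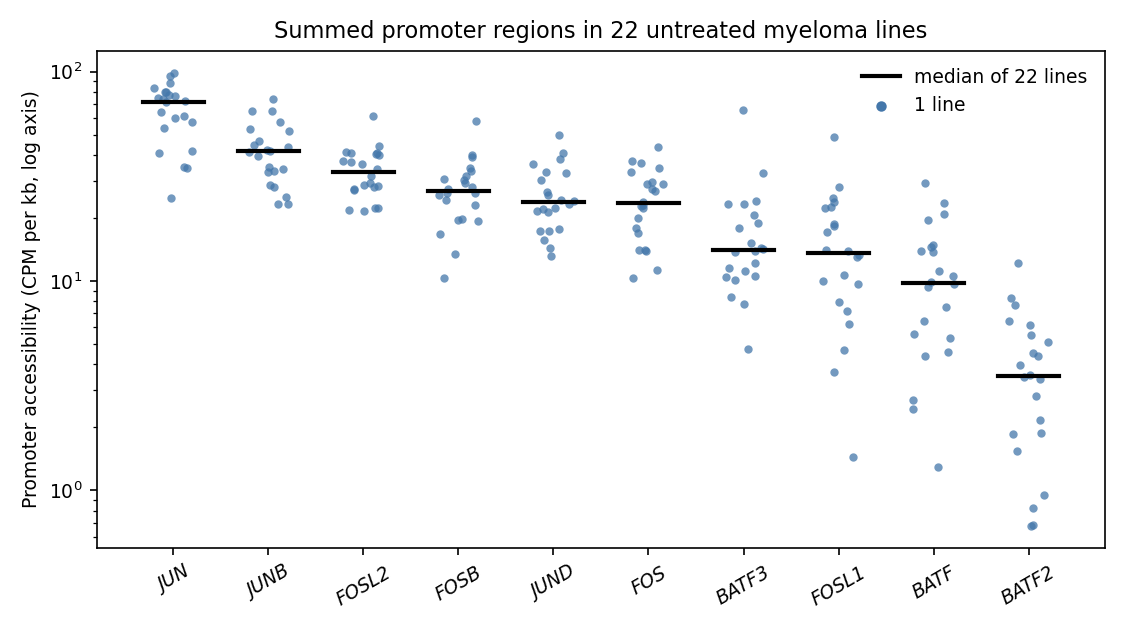
Summed promoter level of each gene, in CPM per kb of covered sequence on a log axis, with 1 point per untreated line and a bar at the median of the 22 lines. JUN had the highest median (71.9 CPM per kb) and BATF2 the lowest (3.52), and the ranges of neighbouring genes overlapped.

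Per kb of covered sequence, the JUN promoter had the highest median level and the BATF2 promoter the lowest. Medians were 71.9 CPM per kb for JUN, 41.6 for JUNB, 33.1 for FOSL2, 26.9 for FOSB, 23.7 for JUND, 23.5 for FOS, 14.1 for BATF3, 13.6 for FOSL1, 9.80 for BATF and 3.52 for BATF2. JUN ranked first of the 10 genes in 17 of 22 lines, JUNB in 4 and FOSL2 in 1, while BATF2 ranked last in 17 lines and BATF in the other 5. None of the 9 differences between neighbours in this order exceeded its own SD over lines. JUN exceeded JUNB in 18 of 22 lines (mean log2 difference 0.61 ± 0.65, SD, n = 22 lines), and FOSB exceeded JUND in 14 lines, by 0.10 ± 0.53.

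The JUN promoter region (chr1:59249068-59250455, GRCh37, over the start, the 5' UTR and the exon of this intronless gene) was called in every untreated line. Its level ran from 38.6 CPM in OCIMY5 through a median of 115 CPM to 170.5 CPM in KMS18. JUN also had a region over its 3' UTR (chr1:59247745-59248216), with a median of 15.7 CPM, which among untreated lines was called in H1112 alone, where it reached 38.1 CPM. The H1112 library was the deepest, with 5564534 counts. KMS21BM, PE1 and KMS34 had 30.35, 28.1 and 25.5 CPM there without a called peak, and the part of depth in this call was not tested. At the JUN start lies an 8-base variant of the AP-1 site, TGACATCA, known from work on this promoter as a JUN-type site through which JUN acts on its own gene. It is shown here in capitals in the direction of the transcript, within chr1:59249768-59249797 (GRCh37, minus strand).
JUN: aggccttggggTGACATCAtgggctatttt

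The summed promoter levels of JUNB and JUND had SDs of 0.47 and 0.50 over lines on the log2(CPM + 1) scale, near that of JUN at 0.52. At JUNB, the higher of its regions lay 1071 bp upstream of the start (chr19:12900596-12901238), was called in 19 lines and ran from 13.5 CPM in LP1 through a median of 26.7 CPM to 54.1 CPM in L363. The region over the JUNB start (chr19:12902084-12902541) was called in 9 lines, with a median of 15.7 CPM. JUND, which is transcribed more steadily than the immediate early members, had its tallest region over the start (chr19:18391964-18393255, in exon and 5' UTR), called in all 22 lines and running from 18.8 CPM in KMS12PE through 32.8 to 85.0 CPM in KMS27. Smaller JUND regions at 236 and 990 bp from the nearest start, over the gene's exon and 3' UTR, were called in 9 and 8 lines.

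Among the FOS genes, the FOS region over the start (chr14:75744812-75746093) was called in 21 lines, with 10.1 CPM in KMS18, a median of 34.5 CPM and 60.5 CPM in KMS12BM. A second FOS region 1119 bp upstream (chr14:75743685-75744357) was called in 8 lines and ran from 0.763 to 39.8 CPM. FOSB had a region of 1101 bp in the gene (chr19:45972179-45973279, exon, intron and 5' UTR) called in 21 lines, from 11.7 CPM in KMS12PE through 31.4 to 73.1 CPM in KMS34. Its second region ended 37 bp before a start (chr19:45970766-45971215), had a median of 9.27 CPM and was called in 8 lines. Both FOSB regions overlap another annotated gene, as do both JUNB regions, the JUND region over the start and all 3 FOSL2 promoter regions, so counts there cannot be assigned to the member alone.

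Serum response factor binds the CArG box, and CREB and AP-1 dimers bind the CRE TGACGTCA, so sites of these kinds in the regions are shown because signals are known to reach the immediate early genes through them. CArG boxes, in capitals, lie in the FOS region over the start at chr14:75745207-75745236, in the FOSB region before the start at chr19:45970970-45970999 and in the upstream JUNB region at chr19:12900752-12900781 (GRCh37, plus strand, 30 bases each).
FOS: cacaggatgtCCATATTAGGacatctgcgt
FOSB: cggccgagctCCTTATATGGctaattgcgt
JUNB: cttcctgtgcCCTAATATGGgcggcgggga

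The CRE lies in the same FOSB region at chr19:45970918-45970947, in the JUND region over the start at chr19:18392614-18392643 (minus strand) and in the widely called distal region of FOSL2 at chr2:28582250-28582279.
FOSB: gggattccctcTGACGTCAttgctaggata
JUND: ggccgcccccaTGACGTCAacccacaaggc
FOSL2: aggaaggaaaaTGACGTCAtgaggtaaacc

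The CRE was found in the central 400 bases of 2 of 22 member promoter regions and of 1.22% of all promoter regions. The CArG box was found in 2 of 22 member promoter regions and 1.96% of all promoter regions, since the FOS box lies outside the central window. The AP-1 site TGACTCA was in 2 of 22 member promoter regions, at FOSL1 and FOSL2, and in 9.62% of all promoter regions. Both strands were searched, and matches describe letters rather than bound sites. No member region held the composite of an AP-1 site and an interferon regulatory element that BATF dimers bind with IRF4, which 0.648% of all regions held. In RefSeq promoters of 300 bases (GRCh38.p14), for which 8 of the 10 genes were matched, the CRE was found for JUND, the AP-1 site for FOSL2 and TGACATCA for JUN and BATF2, against 1.98%, 4.92% and 2.71% of 27305 promoters.

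FOSL1, which encodes FRA-1, had the largest SD over lines among the FOS and JUN genes on the log2 scale, where SDs also depend on the level. Its summed promoter level ran from 1.68 CPM in KMS18 through a median of 15.96 CPM to 57.1 CPM in RPMI8226, with an SD of 1.00 on the log2(CPM + 1) scale (n = 22 lines). Set against the 1000 regions nearest in mean level, its region over the start had an SD above 55.2% of them, compared with 69.1% for the tallest region of JUN, 60% for that of JUND and 57.9% for that of FOS. The region over the start (chr11:65667658-65668395) was called in 16 lines, and RPMI8226, XG-6 and U266 were highest, with 39.2, 30.0 and 26.5 CPM. A region 1500 bp upstream (chr11:65669545-65669976) was called in 4 untreated lines, KMS11, KMS34, PCM6 and RPMI8226, at 12.1 to 17.9 CPM. The distal FOSL1 region (chr11:65676569-65677301, nearest to the gene body of C11orf68) was called in 6 lines, with a highest level of 16.5 CPM in KMS12PE.

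FOSL2, which encodes FRA-2, had the lowest SD on this scale, at 0.39 for its summed promoter level, which ran from 46.1 CPM in Karpas620 to 131.3 CPM in RPMI8226. The region over the start (chr2:28615127-28616185) was called in 21 lines, from 20.6 CPM in PE1 through 40.5 to 88.8 CPM in RPMI8226. Its SD was above that of 30.7% of the 1000 regions nearest in mean level, whereas the BATF2 region stood lower, at 20.6%. The AP-1 site in this region begins 4 bases past the start given in the file and is shown with the FOSL1 site, which lies inside the transcribed part of that gene, at chr2:28615718-28615747 (plus strand) and chr11:65667843-65667872 (minus strand).
FOSL2: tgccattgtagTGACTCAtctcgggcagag
FOSL1: gcacggcgcgggTGAGTCAgaacccagcag

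The FOSL2 region 32626 bp upstream of the start (chr2:28582008-28582688, in no gene body) was the distal member region called most widely. Peaks were called there in 20 of 22 untreated lines, and the next most widely called distal region had 6. Its level ran from 3.71 CPM in KMS27 through a median of 21.2 CPM to 39.9 CPM in U266. KMS27 was thus lowest at this distal region although its FOSL2 promoter region, at 57.7 CPM, was above the median. The distal and promoter sums of FOSL2 had a Pearson r of 0.06 over 22 lines, compared with 0.71 for BATF and 0.60 for BATF3. These are descriptions over lines that share the scaling of their libraries.

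**Figure D2:**
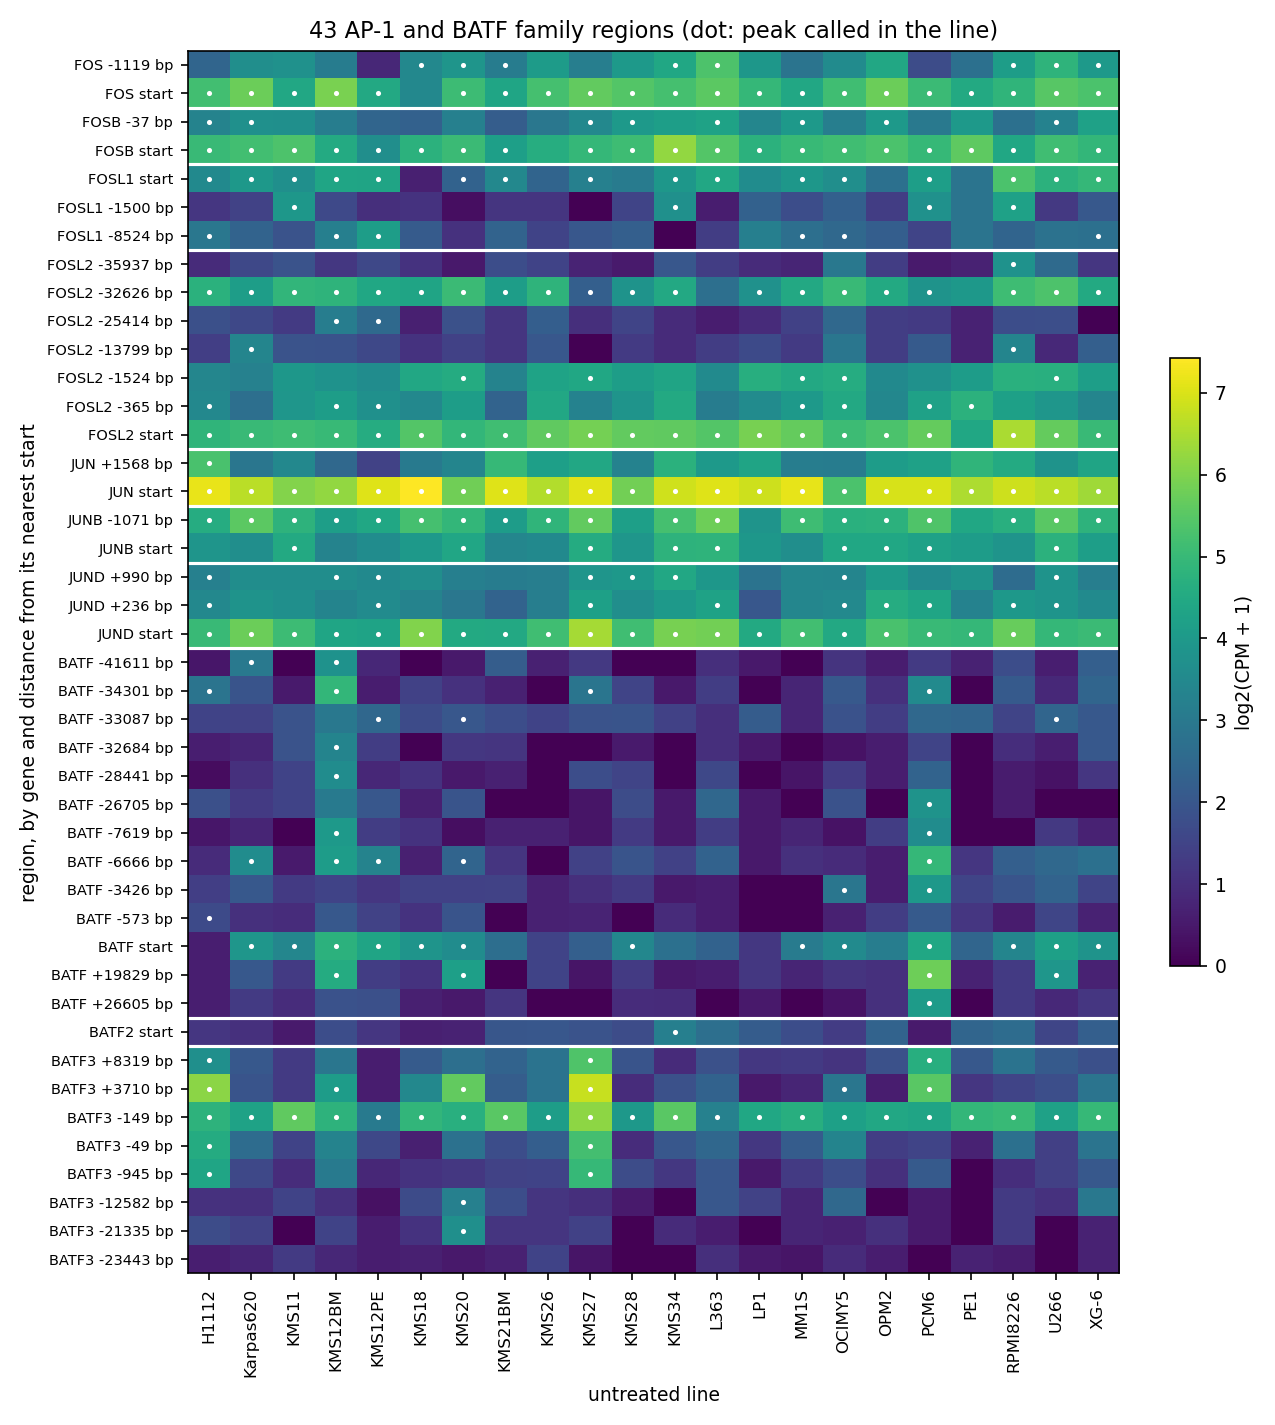
Level of the 43 regions, as log2(CPM + 1) in colour, in the 22 untreated lines, with regions ordered by gene and labelled by their distance in bp from the nearest start (negative is upstream). White dots mark lines with a peak of their own. The BATF and BATF3 distal regions are called in 0 to 6 lines each, and columns for KMS12BM, PCM6, KMS20, H1112 and KMS27 hold most of the high values there.

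At BATF, the region over the start was not called in 9 lines, and distal accessibility was concentrated in a few. The region over the BATF start (chr14:75988388-75989215) was called in 13 lines and ran from 0.539 CPM in H1112 through a median of 9.55 CPM to 26.3 CPM in KMS12BM. An intronic region 19829 bp into the gene (chr14:76008733-76009572) was called in 4 lines, with 54.4 CPM in PCM6, 22.6 in KMS12BM, 17.2 in KMS20 and 13.9 in U266, and at most 3.12 CPM elsewhere among the untreated lines. Its SD over lines of 1.53 exceeded that of 98.9% of the 1000 regions nearest in mean level. The 11 distal BATF regions together ran from 4.12 CPM in MM1S through 16.8 to 161.3 CPM in PCM6 and made up 72.3% of the mean accessibility of the locus. KMS12BM and PCM6 had 7 of the 11 called each, and 13 lines had none. Depth moved with these calls, since the 9 lines with any distal BATF region called had a median total of 3658255 counts and the 13 without had 1960820, although PCM6, with the highest levels, had 2150806. The part of depth in the calls was not tested.

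The 2 lines did not share the same BATF regions in equal measure. Regions 41611 and 34301 bp upstream were highest in KMS12BM, at 12.9 and 28.9 CPM, and PCM6 had 10.7 CPM at the second. The region 6666 bp upstream (chr14:75981422-75982101) was highest in PCM6, at 29.8 CPM, with 16.3 CPM in KMS12BM and 11.1 CPM in Karpas620. The region 26605 bp downstream was called among untreated lines in PCM6 alone, at 15.8 CPM, where KMS12BM had 2.63 CPM. The 6 most upstream regions, between 26705 and 41611 bp from the BATF start, lie nearer to the body of JDP2, a gene for an AP-1 repressor, than to the BATF body, so their assignment to BATF rests on the nearest start alone. Of these distal regions, the one 34301 bp upstream held an AP-1 site, and the one 6666 bp upstream held an interferon regulatory (IRF) element, GAAANNGAAA, both shown because BATF acts through sites of these kinds (chr14:75954224-75954253 and chr14:75981461-75981490, plus strand).
BATF, AP-1 site: cacctttgataTGACTCAttttgatgaaat
BATF, IRF element: agcgctctagGAAAGTGAAActgccttgca

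BATF3, a factor known for its role in dendritic cells and cytotoxic T cell memory, had a promoter region called in all 22 lines (chr1:212872247-212873111), from 7.13 CPM in KMS12PE through 24.5 to 71.2 CPM in KMS27. Beyond the 3' side of the gene, a region 3710 bp from the nearest start, in no annotated gene (chr1:212856293-212857140), was called in 6 lines. It reached 111 CPM in KMS27, 68.8 in H1112, 48.8 in KMS20, 45.1 in PCM6, 16.3 in KMS12BM and 6.49 in OCIMY5, against a median of 3.17 CPM over the 22 lines. KMS18, with a shallower library of 1782959 counts, had 10.1 CPM there and no called peak. All of the 6 libraries but that of PCM6 had totals above the untreated median, and the part of depth in these calls was not tested. Its SD of 1.91 exceeded that of 98.8% of the 1000 regions nearest in mean. KMS27 and H1112 were also the lines in which the neighbouring upstream regions were called, at 35.8 and 22.8 CPM for the one 49 bp upstream and 30.7 and 19.6 CPM for the one 945 bp upstream. KMS20 alone carried peaks 12582 and 21335 bp upstream, at 8.38 and 12.0 CPM.

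BATF2, in contrast, had 1 region in the whole series (chr11:64764089-64764766, 678 bp, over the start, with exon, intron and 5' UTR). It was called in 1 of 22 untreated lines, KMS34, at 8.22 CPM (Wilson interval 5.26 to 12.8). In the other 21 lines it ran from 0.459 CPM in KMS11 to 5.61 CPM in L363.

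**Figure D3:**
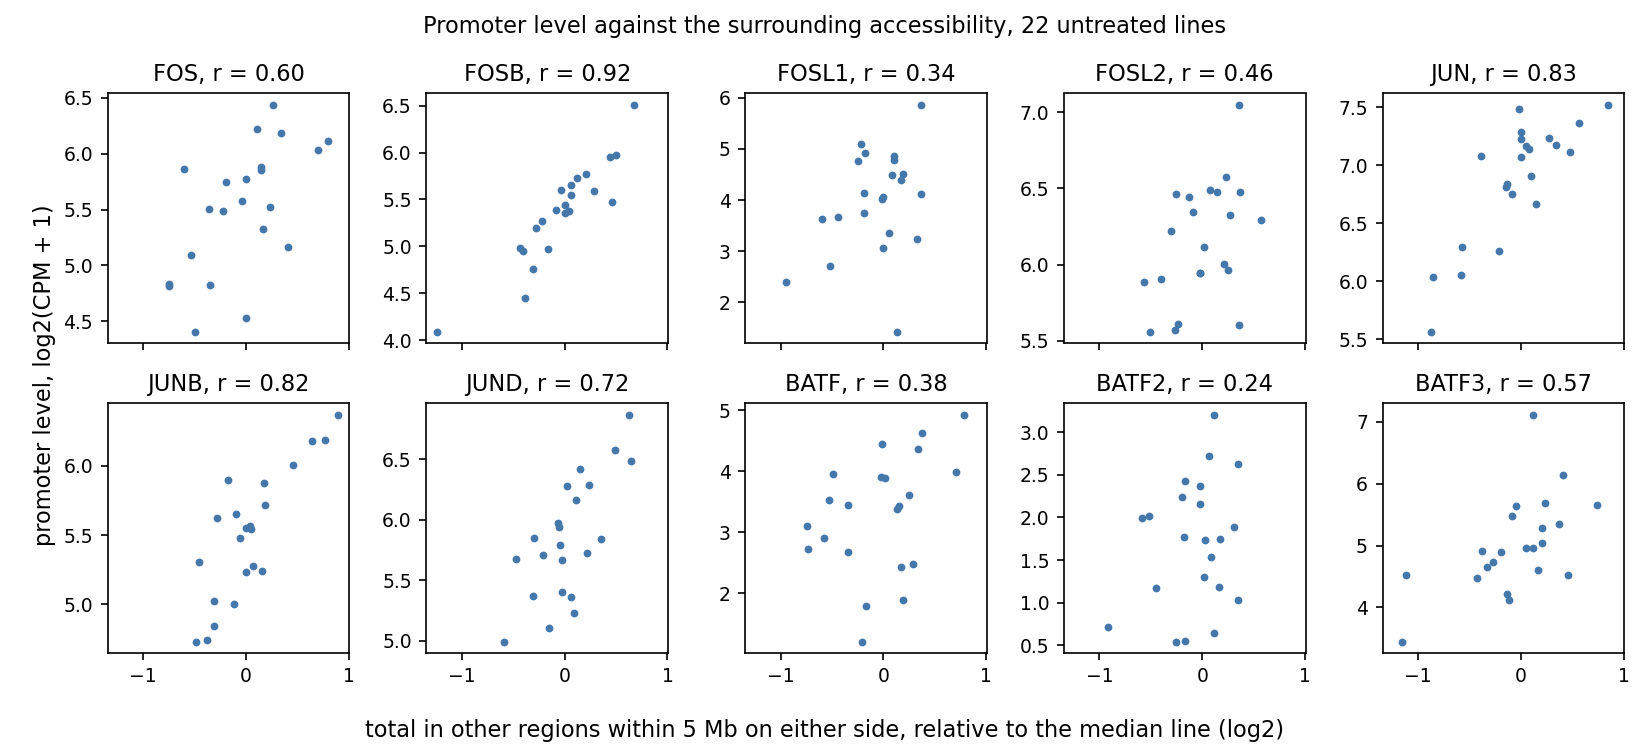
Summed promoter level of each gene, as log2(CPM + 1), against the library's total in all other regions within 5 Mb on either side relative to the median line (log2), with 1 point per untreated line and Pearson's r over 22 lines. FOSB, JUN and JUNB lay closest to a line (r of 0.92, 0.83 and 0.82), and BATF2, FOSL1 and BATF were the most scattered (0.24, 0.34 and 0.38). The median r over 15837 genes with a mean promoter level of at least 5 CPM was 0.53, and these genes were not matched for level.

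Part of the variation between lines ran alongside the accessibility of the surrounding chromosome. For each gene and line, the total in all other regions within 5 Mb on either side was expressed relative to the median line. This local factor ran from 0.423 in KMS12PE to 1.599 in KMS34 around FOSB, and the same lines had the lowest and highest FOSB promoter, at 16.03 and 90.01 CPM. Around JUN it was lowest in OCIMY5 (0.543) and highest in H1112 (1.80), again the lines with the lowest and highest JUN promoter, at 46.3 and 182.6 CPM. Around JUNB it was lowest in KMS21BM (0.712) and highest in L363 (1.87), with promoter sums of 25.6 and 81.6 CPM.

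Dividing by the local factor lowered the SD over lines from 0.53 to 0.23 for FOSB, from 0.52 to 0.29 for JUN, from 0.47 to 0.27 for JUNB and from 0.50 to 0.35 for JUND. The ratio of the scaled to the unscaled SD for FOSB was 0.432, and 0.543% of 15837 genes with a mean promoter level of at least 5 CPM had a lower one. For JUN and JUNB, 5.13% and 5.66% of genes had a lower ratio, and the median over all genes was 0.879. The scaling lowered the SD of all 10 members and of 85.5% of the 15837 genes. The SD of the other genes moved less, from 1.00 to 0.94 for FOSL1, from 0.97 to 0.90 for BATF, from 0.75 to 0.74 for BATF2, from 0.77 to 0.63 for BATF3, from 0.57 to 0.47 for FOS and from 0.39 to 0.37 for FOSL2. The summed distal BATF and BATF3 regions kept SDs of 0.98 (from 1.24) and 1.43 (from 1.54) after this scaling. Around BATF the local factor was highest in KMS12BM, at 1.72, and was 1.30 in PCM6. Around BATF3 it was 1.09 in KMS27, 1.33 in H1112, 1.15 in KMS20 and 0.793 in PCM6. DNA copy number was not measured in these files, and its part in the local factor was not tested.

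Correlations between the promoters of the family across lines changed with the local scaling. Among the 45 pairs of genes, the highest Pearson r was 0.73 for JUNB and JUND and the next was 0.54 for FOSB and JUNB, all 3 genes being on chromosome 19. With the local scaling these values were 0.36 and 0.24, and the highest were 0.71 for FOS and BATF2 (from 0.40) and 0.62 for FOSL2 and JUND (from 0.22). The lowest r was -0.44, for BATF and BATF2, which had -0.45 with the scaling, where the lowest was -0.53 for FOSL1 and JUN (from -0.043). For the 3 promoters with the largest SD, the genes on other chromosomes whose promoter levels were most alike over the 22 lines were CAPN10 (r = 0.77), BCL7C (0.76) and BLVRA (0.75) for FOSL1. Those most like BATF included FRK (0.84) and PKP3 (0.73), and those most like BATF3 were ARHGAP25 (0.67), RP11-3L8.3 (0.63) and LINC00544 (0.63). These were picked from 14099 to 15285 genes compared with each member.

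Lenalidomide was then compared with no drug within the 6 lines, by edgeR's quasi-likelihood test on counts with the cell line as a block and Benjamini-Hochberg adjustment over all 37732 regions tested. The filter on low counts kept 21 of the 43 member regions, 19 promoter and 2 distal. BATF2 rose, and no other member region passed the threshold in either direction. Over all regions tested, 1575 were raised (4.17%) and 461 lowered (1.22%), so 1 raised and 0 lowered of 21 members was a share near this background. At an unadjusted p below 0.05, 4 of the 21 member regions (19.05%) and 17.3% of all regions passed. The median log2 change of the 21 was 0.04, with 12 above and 9 below 0, and that of all tested regions was -0.01.

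The BATF2 promoter region was higher with lenalidomide in 6 of 6 lines. Counts went from 3 to 16 in Karpas620, from 8 to 32 in KMS27, from 11 to 47 in L363, from 7 to 11 in MM1S, from 8 to 24 in OPM2 and from 11 to 50 in RPMI8226. As CPM, these were 1.04 and 6.26 in Karpas620, 2.70 and 10.9 in KMS27, 5.61 and 21.7 in L363, 2.40 and 3.99 in MM1S, 4.17 and 10.9 in OPM2 and 5.19 and 11.8 in RPMI8226. L363 was highest under both conditions, and the groups overlapped because treated MM1S lay below untreated L363, OPM2 and RPMI8226. No peak was called there in the 6 untreated libraries, whereas 5 of the 6 lenalidomide libraries, all but that of MM1S, had one. The fitted log2 change was 1.61 (SE 0.26, edgeR adjusted p = 1.1e-04), a 3.05-fold rise, which ranked 140 among the 1575 raised regions by size. The Wilson intervals of the paired libraries did not overlap in Karpas620, KMS27 and L363. The lenalidomide library was the shallower one in 3 of the 6 lines, Karpas620, KMS27 and MM1S. It was the deeper one in L363, OPM2 and RPMI8226, in the last with 4248017 counts against 2117764. How far depth entered the BATF2 peak calls was not tested.

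**Figure D4:**
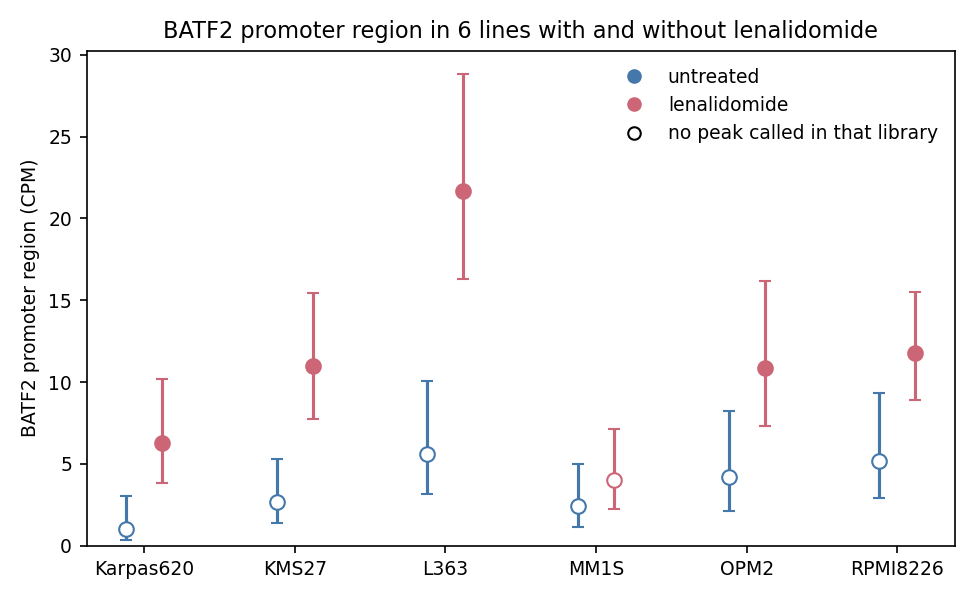
BATF2 promoter region in CPM in the 6 lines without drug and with lenalidomide, with bars for the 95% Wilson interval of each library (counting error only). Filled points are libraries with a called peak. The treated point is above the untreated one in each line, with the smallest gap in MM1S (2.40 and 3.99 CPM).

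The IRF element was in the central 400 bases of 16.6% of the 1575 raised regions, 14.1% of the 461 lowered regions and 10.2% of the 37732 regions tested. The AP-1 site was in 14.4% of raised and 14.8% of lowered regions, against 9.17% of those tested. The CRE was in 0.19% of raised and 1.09% of lowered regions, against 1.23%. For TGACATCA, the CArG box and the composite the shares were 2.03%, 1.97% and 0.635% of raised and 2.60%, 2.60% and 0.868% of lowered regions, against 1.73%, 1.91% and 0.567%. These sets differ in kind, since 632 of the 2036 raised or lowered regions were promoter regions, against 18780 of the 37732 tested. Among all promoter regions the share with the IRF element was 8.09%, and BATF2 was the 1 of 22 member promoter regions with it in that window. In the RefSeq promoter table the BATF2 promoter did not hold these letters, and 3.65% of the promoters there did. Whether that promoter is placed around the same start as the region was not examined.

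**Figure D5:**
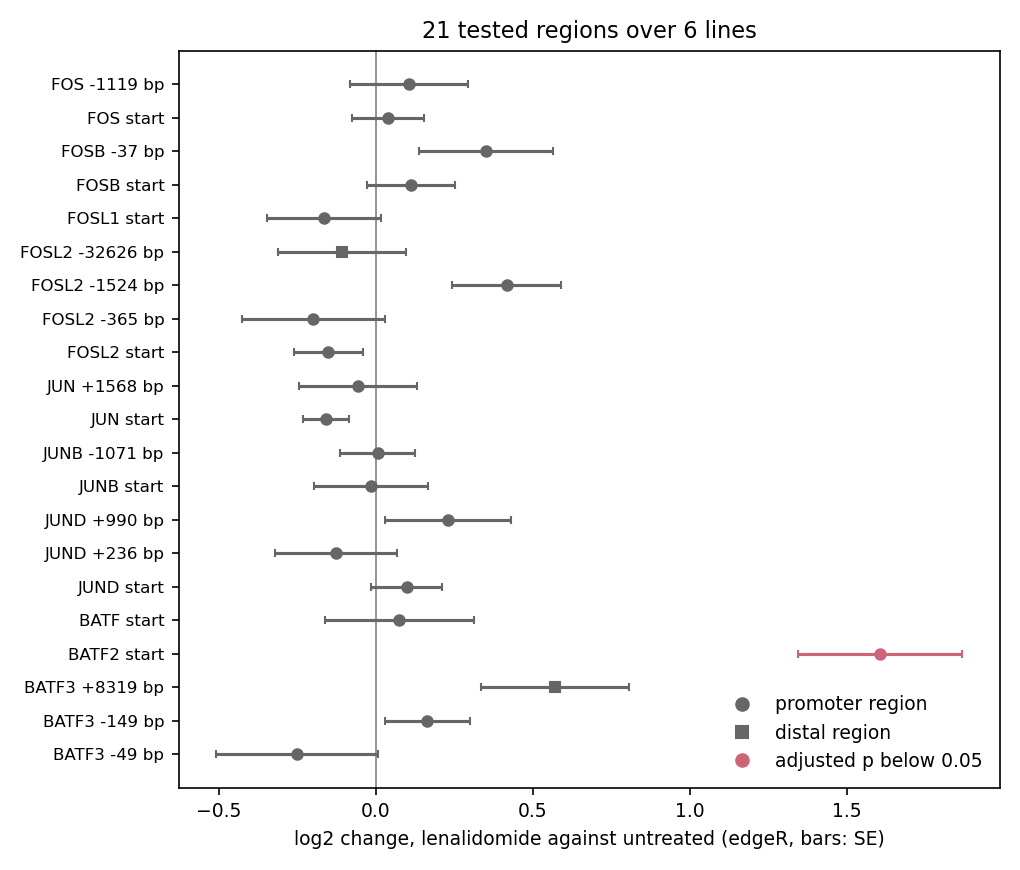
Fitted log2 change (lenalidomide against untreated) of the 21 tested regions, with bars for the SE, circles for promoter and squares for distal regions. BATF2 at 1.61 is the coloured point past the adjusted threshold, and the other 20 lie between -0.25 and 0.57.

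Of the other member regions, 3 had an unadjusted p below 0.05 and did not pass after adjustment. The distal BATF3 region 8319 bp from the nearest start had a log2 change of 0.57 (SE 0.24, edgeR adjusted p = 0.178) and was higher in 6 of 6 lines. Its counts went from 9 to 10 in Karpas620, 5 to 7 in L363, 4 to 5 in MM1S and 5 to 12 in OPM2. In KMS27 they went from 120 to 154 and in RPMI8226 from 13 to 53. Without KMS27, or without RPMI8226, this BATF3 region did not pass the filter on low counts. The FOSL2 region 1524 bp upstream had a change of 0.42 (SE 0.17, edgeR adjusted p = 0.185), with 4 lines higher and 2 lower. The JUN promoter region had a change of -0.16 (SE 0.07, edgeR adjusted p = 0.255) and was lower in 5 of 6 lines. The widely called distal FOSL2 region had a change of -0.11 (SE 0.20). The intronic BATF region and the BATF3 region at 3710 bp, which varied most between lines, were not tested because they did not pass the filter on low counts. At the BATF3 region, KMS27 went from 111 to 78.3 CPM.

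Summed over all regions of each locus, BATF2 again rose and none of the other 9 genes passed the threshold. The background was 568 raised (2.06%) and 99 lowered (0.359%) of 27593 genes tested, and BATF2, with 1 region, is not independent of the region test (log2 change 1.63, SE 0.26, edgeR adjusted p = 5.5e-04). The immediate early members had changes of 0.06 for FOS (SE 0.11), 0.19 for FOSB (SE 0.14), -0.13 for JUN (SE 0.08) and 0.03 for JUNB (SE 0.11). JUND had 0.09 (SE 0.10), FOSL1 -0.09 (SE 0.16), FOSL2 -0.04 (SE 0.10), BATF -0.01 (SE 0.15) and BATF3 0.10 (SE 0.10). On the log2(CPM + 1) scale, the mean change over the 6 pairs at these 9 loci ran from -0.15 for JUN to 0.15 for FOSB, and the SD of the change over pairs ran from 0.15 for JUN to 0.53 for FOSB. For JUN, untreated sums of the 6 lines ran from 106.5 through 144.1 to 155.5 CPM and treated sums from 113.1 through 122.1 to 143.4 CPM, and 1 of 6 lines was higher with the drug.

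Other genes of the pathway, from fixed lists, were examined in the same fit. None of 16 tested bZIP partners, which include ATF3, BACH2 and JDP2, passed in either direction, and their median log2 change was -0.02 against 5.9e-04 for all genes. JDP2, ATF2, ATF6 and CREB1 had no promoter region assigned to them, so their sums held distal regions alone. None of 12 upstream kinases passed. At an unadjusted p below 0.05 there were 2 of the 12, against 3893 of all 27593 genes. These were MAP3K8, which encodes TPL2, and MAP2K1, which encodes MEK1, both named after their values were seen. Their changes were 0.39 (SE 0.11, edgeR adjusted p = 0.052) and 0.80 (SE 0.23, edgeR adjusted p = 0.058), with higher values in 6 of 6 lines. Promoter regions assigned to MAP2K1 by nearest start were near the floor, with a median of 2.22 CPM. A peak was called there in 1 of 22 untreated lines. A promoter region nearer to another gene's start would not be counted for MAP2K1. For MAP3K8 a promoter peak was called in 21 lines, at a median of 40.25 CPM. None of 14 feedback regulators, such as the phosphatases of the DUSP family, passed. Of 13 immediate early genes and their factors, EGR3 rose by 0.41 (SE 0.10, edgeR adjusted p = 0.018) and was higher in 5 of 6 lines, and the median change of the list was 0.13. In this list 4 of the 13 had an unadjusted p below 0.05, EGR3 among them, against 3893 of all 27593 genes. The BATF partners IRF4 and IRF8 had changes of 0.05 (SE 0.09) and 0.09 (SE 0.20).

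Markers of other cell types were examined beside the rise of BATF2. Of 4 T cell genes, CD2 was raised (log2 change 1.17, edgeR adjusted p = 0.009) and CD3E, CD3D and CD247 did not pass. CD2 had no promoter region assigned to it, so its sum held distal regions alone. CD3E had a change of 0.29 (SE 0.14, edgeR adjusted p = 0.369) and was higher in 6 of 6 lines, whereas CD3D and CD247 were higher in 2 each. The summed level of the T cell loci ran from 57.7 to 178.3 CPM without and from 75.3 to 183.1 CPM with the drug, and was higher in 3 of 6 lines. None of 7 plasma cell, 2 tested B cell, 4 myeloid or 3 epithelial or stromal genes passed in either direction. Summed myeloid loci and summed epithelial or stromal loci were each higher in 5 of 6 lines, at 15.2 to 82.6 CPM (12.5 to 61.4 without drug) and 22.1 to 102.6 CPM (15.7 to 77.0 without drug). The part of these loci in the BATF2 result was not tested.

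Member promoter regions were rich in GC, with a median of 65.7% against 54.8% for all promoter regions, and member distal regions had 50.5% against 45.3% for all distal regions. Their median width was 675.5 bp for promoter and 441 bp for distal regions, against 525 and 393 bp.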

How the data were processed

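ATAC-seq libraries of 28 samples were used, grouped by the cell line and drug in their labels. Per the submitters' processing notes, the authors aligned reads to GRCh37 with Bowtie2 2.2.6, used SAMtools 1.7 and called peaks with MACS2 2.1.0.20151222. The authors deposited whole-number counts per merged region, which are the values used, and a table read here as the number of a library's own peaks in each region, although the file does not define it. The study's methods describe the marking of PCR duplicates for ChIP-seq files. Whether duplicates were left out of the ATAC-seq counts, whether read ends were shifted and whether reads or fragments were counted are not given in the sources used here, and each could change counts. Deposited RPM values repeat these counts and were not used.

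CPM was computed from each count and its library's sum over all regions, and log2 values used a pseudocount of 1. The lenalidomide fits used edgeR 4.0.16 in R 4.3.3 (TMM, filterByExpr by condition, quasi-likelihood test, cell line as block, adjusted p below 0.05 over all features). The region fit was also run on counts simulated from means and dispersions estimated in these libraries. Such counts meet the model's assumptions by construction, so that run does not test them. Same-line libraries pair treated with untreated samples, so the block is the cell line. Samples are separate lines, and whether a line's 2 libraries came from separate cultures is not stated. KMS12BM and KMS12PE share a name stem, and whether these or other lines came from the same patient is not stated. SDs, percentiles and correlations over lines counted each line separately, so they do not stand for independent tumours. DESeq2 1.42.0 was an alternative. Motifs were searched in GRCh37 sequence.

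Named regions were each gene's tallest promoter region, its tallest and most variable distal region and any region past the threshold. Other regions and the 2 kinases named were chosen after their values were seen, as were the IRF element and the ratio of scaled to unscaled SD over all genes. The members and lists were chosen with earlier results of these data known. A gene among those most like BATF and a stretch of sequence are not reported here.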

Additional observations from a re-analysis of the deposited data

Results flagged for a closer look

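Over the 10 genes, 30 groups of 6 values (locus sums without drug, locus sums with lenalidomide, and log2 changes) were examined for a value far from the other 5, and 8 had one. For normally distributed values chance gives about 1 in 20 groups. The locus sums were CPM without a log scale, so the rate may differ here, and the groups share lines. RPMI8226 stood apart at FOSL1, with 61.4 CPM without drug (next 22.95) and 61.4 CPM with lenalidomide (next 23.1), and at FOSL2, with 189.4 CPM without drug (next 110.9) and 196.1 CPM with it (next 94.5). KMS27 stood apart at BATF3, with 292.1 CPM without drug (next 49.1) and 295.2 CPM with it (next 59.3). Each of these lines thus stood apart in both of its libraries. Karpas620 was low at JUN without drug, with 106.5 CPM (next 137.4). The log2 change of FOSL1 was lowest in MM1S, at -0.63, and the next line had -0.15.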

How the results depend on the processing

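The count of member regions past the threshold was 1 under DESeq2, without TMM and without a filter on low counts, and 1 to 1 as each line was left out. The count of member genes was also 1 under these settings, 1 to 1 as each line was left out, and 1 with promoter regions only. The gene was BATF2 each time. Both counts were 0 when 10 or more counts were required in all 12 libraries, which removes BATF2 from the test, and 0 with no replicate block, where 0 of all 37732 regions and 0 of all 27593 genes passed in edgeR. At an unadjusted p below 0.05, 1 member region and 0 genes passed with the stricter filter, and 1 of each without the block. Without the block the BATF2 log2 change was 1.63 for the region (unadjusted p = 0.0050 and adjusted p = 1 in edgeR) and 1.66 for the gene (edgeR adjusted p = 1). As each line was left out, the BATF2 region change ran from 1.497 to 1.72 (edgeR adjusted p 9.9e-05 to 0.0020) and the gene change from 1.52 to 1.75. Over all regions, calls numbered 2036, 839 under DESeq2, 587 under the stricter filter and 4092 without a filter. Without MM1S there were 1067 and without KMS27 1310. Over all genes they numbered 667, 282 under DESeq2, 350 under the stricter filter and 397 with promoter regions only, and 402, 356, 338 and 306 without MM1S, KMS27, OPM2 and L363. Changes near 0 turned sign: FOSL2 (-0.141 to 0.0548), BATF (-0.0816 to 0.0288), JUNB (-0.0438 to 0.0965) and FOSL1 (-0.139 to 0.0137) as lines were left out, and BATF also with no replicate block (0.0125) and with promoter regions only (0.0740). Other small changes kept their sign as lines were left out but moved by more than 1.5 times: FOSB (0.0605 to 0.318, the highest without MM1S at unadjusted p = 0.032 and edgeR adjusted p = 0.339), JUND (0.0051 to 0.137), FOS (0.0021 to 0.124) and BATF3 (0.0439 to 0.146). Mean promoter levels moved by more than 1 SD with the single tallest region for FOSL2, JUNB and JUND and with the 1000 bp limit for JUNB, which drop counts by construction. The SD of FOSB, JUN and JUNB was 0.23, 0.29 and 0.27 with local scaling. Low counts limit BATF2, with 3 to 11 counts in the untreated libraries of the pairs, and 22 member regions were too low to test.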
